A study of Mus musculus with 4 samples.

Results

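The 10 genes described here encode enzymes that make serine, glycine, one-carbon folates, asparagine and proline. They are Phgdh, Psat1 and Psph of serine synthesis, Shmt1, Shmt2, Mthfd2 and Mthfd1l of the serine to folate branch, Asns of asparagine synthesis, and Aldh18a1 and Pycr1 of proline synthesis. They were listed by name, for their place in these pathways and with earlier results of these data known, out of 24249 named genes on the array, and 16 of its 39429 probes report them. All 16 probes were well above background on all 4 arrays, so that no enzyme was lost to the filter on dim probes. The cells were IMS32, an immortalized Schwann cell line from the adult mouse, and were kept for 1 h in DMEM with 5% fetal bovine serum. The 4 groups received 5 mM glucose with 1 mM pyruvate, 5 mM glucose without pyruvate, 15 mM glucose with 1 mM pyruvate, or 15 mM glucose without pyruvate, written with a bracketed name such as [Glc 15 mM/Pyr (-)] for the last. Wherever 4 readings follow each other, they are in that order. Each group was 1 one-colour Agilent array of 1 RNA sample, so the comparison asks how these transcripts stood after pyruvate was removed at either glucose level, and it has no replicate check.

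Serine is built from 3-phosphoglycerate, an intermediate of glycolysis, and its carbon is then passed on to glycine and to the folate coenzymes that feed nucleotide synthesis. Asparagine is made from aspartate, and proline from glutamate. Most of these enzymes are known as targets of ATF4, a transcription factor that is translated when eIF2 is phosphorylated and that also drives a group of stress genes such as Ddit3, Trib3 and Chac1. Background of this kind says nothing about how the genes behaved in these cells.

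The 4 arrays were alike in signal, with 28470 to 30344 probes well above background and a 75th percentile of intensity from 1597 to 1788, and no transcript spot was saturated. A probe's level below is log2 of its processed signal minus the array's 75th percentile, and a difference is between 2 such levels. Probes printed 10 times within an array had a median SD of 0.071 to 0.077 (log2), which gives a spread of 0.10, or 1.07-fold, for a difference between 2 arrays. This spread is a single SD of a difference for a typical probe, so values beyond it can arise from spot error alone. For the noisiest 10% of these probes, the SD within an array began at 0.19 to 0.25. The spread covers the error within an array and not that between cultures. It was not narrowed for genes averaged over several probes, whose mean has a smaller spot error. The Schwann cell label was set against 13 markers, all of which had a probe well above background on all arrays, Sox10 at 4837 to 5667 and S100b at 3519 to 4319, while Erbb3 lay between 15.6 and 22.2. Markers of other cells were measured too, with Col1a2 at 85784 to 91960, Itgam at 7997 to 13155 and Snap25 at 5470 to 9340, whereas others of the same lists were dim, such as Pdgfra at 15.4 to 19.9 and Ptprc at 23.4 to 29.6, and Cdh5 was not well above background on any array. Cd68 moved with pyruvate at 15 mM glucose, from 969 to 1817, and its part in any result was not tested. In a whole culture, fewer cells of a type and less RNA per cell cannot be told apart.

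The promoters are shown first, since the letters of the element that ATF4 and C/EBP proteins bind were looked for in them. The search used the core TGATGNAA on both strands of the RefSeq windows from 250 bases before to 50 after each start site (build GRCm38.p6), and all 10 genes had a window. The core stood in the windows of Asns and Pycr1, that is in 2 of 11 windows or 18.2%, against 3.97% of 32851 windows of all genes. Both matches are printed with the bases around them, the core in capitals, 5′ to 3′ on the minus strand, Asns from chr6:7693210-7693262 and Pycr1 from chr11:120643814-120643881. The core ended 15 bases before the start site of Asns and 95 bases before that of Pycr1.
Asns: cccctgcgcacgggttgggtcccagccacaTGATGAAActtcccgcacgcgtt
Pycr1: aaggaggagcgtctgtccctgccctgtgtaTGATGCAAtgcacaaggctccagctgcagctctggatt
The cores differ in the base that the search left free. Among the stress genes of ATF4, 5 of the 11 with a window held the core (Atf3, Chac1, Nupr1, Trib3 and Vldlr), and among the aminoacyl-tRNA synthetases 5 of 13 did. A match is a description of letters, and the windows of the other 8 enzymes may hold other forms of the element.

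Of serine synthesis, Phgdh, which oxidises 3-phosphoglycerate in the first step, was nearly level over the 4 conditions. Its probe at mm9 chr3:98117215-98117274 read 54662, 53330, 50296 and 50008 in intensity, which after scaling gave levels of 4.93, 4.94, 4.98 and 4.94. The other two probes named for it are placed by the array design on chromosomes 17 and 8, while RefSeq has the gene on chromosome 3, so their identity is less sure. The array design lists the chromosome 8 probe under the same transcript as the chromosome 3 probe. Its sequence was not aligned here, so the doubt is not settled. It is printed with its design position mm9 chr8:29193872-29193931 on the minus strand.
Phgdh probe: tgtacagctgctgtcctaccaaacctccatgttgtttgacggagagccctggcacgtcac
Averaged over its 3 probes, Phgdh differed by 0.032 without against with pyruvate at 5 mM glucose and by -0.051 at 15 mM, both within the spread. The probe placed on chromosome 17 (chr17:53337968-53338027) read 55711, 58484, 54887 and 53329, and differed more, by 0.11 and -0.072 for pyruvate at 5 and 15 mM glucose and by 0.14 for glucose with pyruvate. All 3 probes were highest in [Glc 15 mM/Pyr (+)].

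Psat1, the transaminase of the next step, was highest in [Glc 15 mM/Pyr (-)] by both probes, but they differed in size. The brighter probe, at mm9 chr19:15979622-15979681, read 48259, 48094, 43246 and 46153, and was 0.063 higher without pyruvate at 15 mM glucose, within the spread. The other, at chr19:15991586-15991645 on the minus strand, read 1603, 1555, 1427 and 1737, and was 0.25 higher. That second probe is printed 5′ to 3′ since the call on Psat1 depends on it.
Psat1 probe: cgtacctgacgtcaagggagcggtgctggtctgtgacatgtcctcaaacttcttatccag
The mean of both probes gave 0.16 at 15 mM glucose (1.12-fold) and 0.015 at 5 mM. At 5 mM glucose the 2 groups thus did not part beyond the spread by either probe.

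Psph, the phosphatase that releases serine, had 2 probes that moved alike. The brighter, at mm9 chr5:130271441-130271500, read 21433, 20722, 19233 and 22775, with levels of 3.58, 3.57, 3.59 and 3.80. The dimmer, at chr5:130272308-130272367, read 5487, 5137, 5019 and 5838. On both probes [Glc 15 mM/Pyr (-)] stood above the other 3 arrays, which lay within the spread of each other. The gene was 0.20 higher (1.15-fold) without pyruvate at 15 mM glucose and -0.033 at 5 mM, and without pyruvate it was 0.25 higher (1.19-fold) at 15 than at 5 mM glucose. These 2 larger differences share the [Glc 15 mM/Pyr (-)] array.

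**Figure D1:**
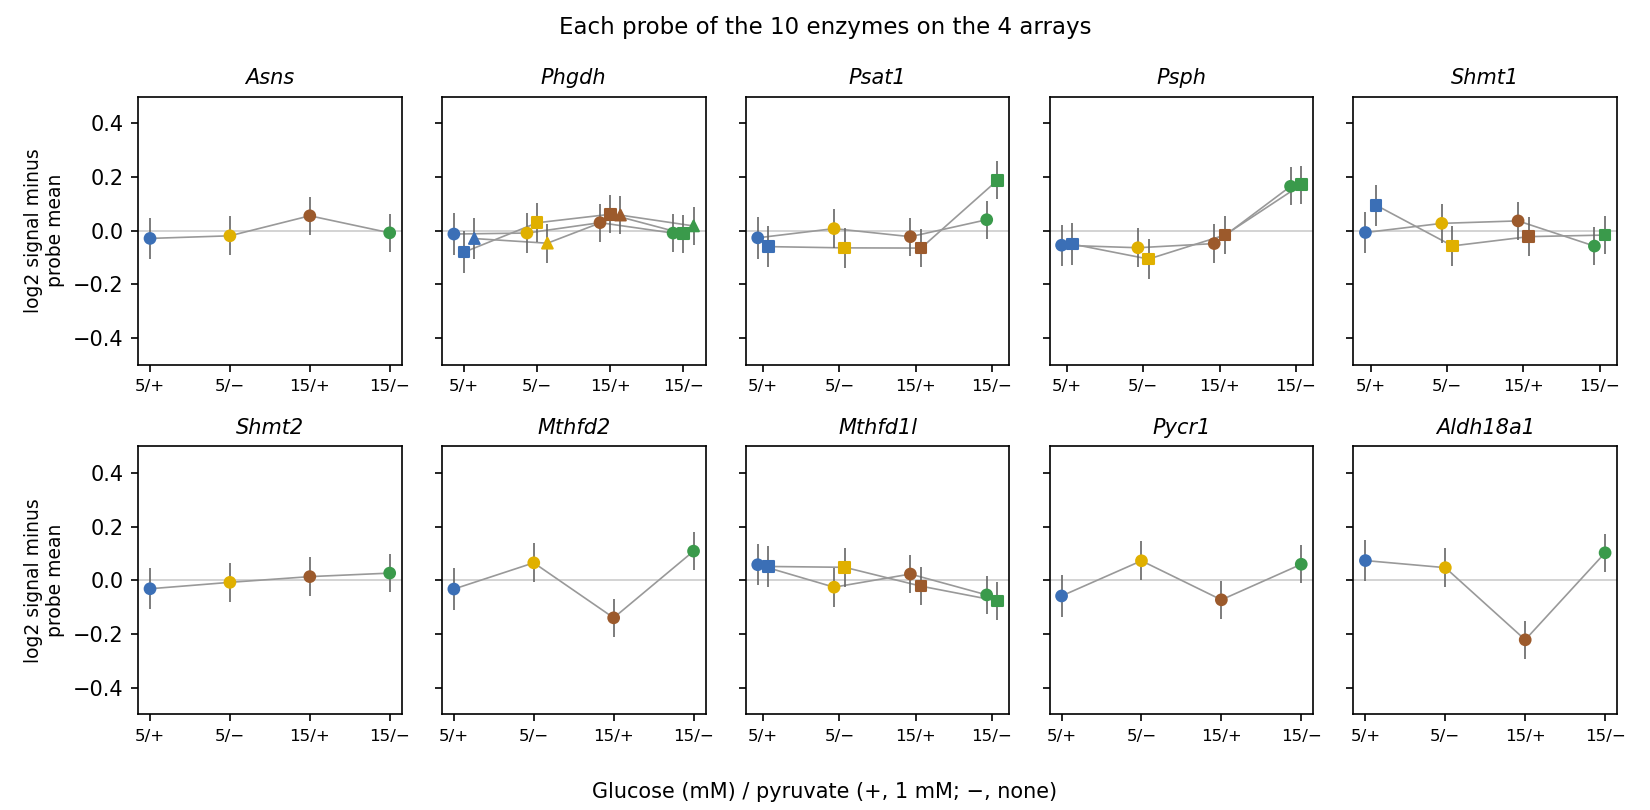
Levels of each probe of the 10 enzymes on the 4 arrays, as log2 signal minus the probe's own mean (vertical axis), against glucose in mM and pyruvate (horizontal axis). Marker shapes are the different probes of a gene, grey lines join the points of 1 probe, and bars are the median SD of probes printed 10 times on that array (0.071 to 0.077). Psph lifts in [Glc 15 mM/Pyr (-)], while Aldh18a1 and Mthfd2 dip in [Glc 15 mM/Pyr (+)].

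Of the serine to folate branch, the transferases that split serine into glycine and a one-carbon unit varied little as genes over the 4 arrays. Shmt2, the mitochondrial form, read 21477, 21250, 19801 and 20410 (mm9 chr10:126954811-126954870), and its levels of 3.59, 3.61, 3.63 and 3.64 spanned 0.058. Of the 17431 genes measured on all arrays, 2.31% had a narrower range, the median range being 0.24. That share is not matched for brightness, and bright probes differ less. For pyruvate at 5 mM glucose the SD of differences was 0.34 in the dimmest class of probes and 0.095 in the brightest. Shmt1, the cytosolic form, gave 0.081 over the 4 arrays as the mean of 2 probes, one at 1124 to 1276 (chr11:60603099-60603158) and one at 260 to 316 (chr11:60620453-60620512). The dimmer Shmt1 probe was -0.15 without pyruvate at 5 mM glucose, where the brighter was 0.034, so they did not share a direction. Singly the dimmer spanned 0.15 and the brighter 0.094, so the narrower range of the gene came from averaging them. No order of the conditions stood beyond the spread for either gene as a whole.

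Mthfd2, a mitochondrial dehydrogenase and cyclohydrolase of methylene-tetrahydrofolate, read 6486, 6754, 5380 and 6528 on its 1 probe (chr6:83256518-83256577). Its levels were 1.86, 1.96, 1.75 and 2.0, so that it was lower with pyruvate than without at both glucose levels. The difference was 0.25 (1.19-fold) at 15 mM glucose, beyond the spread, and 0.098 at 5 mM, within it. Between the 2 groups without pyruvate it differed by 0.044, also within the spread. Mthfd1l, the mitochondrial formyl-tetrahydrofolate synthetase, was -0.043 at 5 mM and -0.066 at 15 mM glucose as the mean of 2 probes (chr10:6190563-6190622 and chr10:6198416-6198475). Those probes read 15720 to 18621 and 2823 to 3381, and both were highest in [Glc 5 mM/Pyr (+)] and lowest in [Glc 15 mM/Pyr (-)]. As a gene, Mthfd1l differed by less than the spread in each of the 4 pairs.

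Asns, which makes asparagine from aspartate with the amide of glutamine, read 61340, 60097, 58106 and 56797 (chr6:7625169-7625228). Its levels of 5.10, 5.11, 5.18 and 5.12 differed by 0.0097 without against with pyruvate at 5 mM glucose and by -0.064 at 15 mM. No pair of its arrays parted beyond the spread, and 6.46% of all genes measured had a narrower range, a share not matched for brightness. Whether the core in its window bears on these levels was not tested.

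Of proline synthesis, Aldh18a1, which reduces glutamate to the precursor of proline and ornithine, had the widest range of the 10. Its 1 probe (chr19:40625045-40625103) read 1035, 989, 754 and 964, with levels of -0.79, -0.82, -1.08 and -0.76. The [Glc 15 mM/Pyr (+)] array was the low one, and the other 3 lay within 0.055 of each other. Hence Aldh18a1 was 0.32 higher (1.25-fold) without pyruvate at 15 mM glucose, -0.026 at 5 mM, and -0.30 at 15 against 5 mM glucose with pyruvate. Of all genes, at any brightness, 67.4% had a narrower range. Pycr1, the mitochondrial reductase that completes proline, was dim at 53.6, 57.2, 47.4 and 53.1 (chr11:120497302-120497361). It was 0.13 higher without pyruvate at both glucose levels, and with normexp background correction, which changes dim probes most, its value at 15 mM glucose turned to -0.088.

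Set side by side, the enzymes did not share 1 pattern. [Glc 15 mM/Pyr (-)] held the highest level for 5 of them (Psat1, Psph, Shmt2, Mthfd2 and Aldh18a1) and the lowest for 2 (Shmt1 and Mthfd1l). That array was the highest for 38.5% and the lowest for 30.5% of the 17431 genes measured on all arrays. [Glc 15 mM/Pyr (+)] held the lowest level for 4 (Psat1, Mthfd2, Pycr1 and Aldh18a1) and the highest for Asns and Phgdh, beside 23.7% and 15.2% of all genes. These ranks take no account of the spread. Against [Glc 5 mM/Pyr (+)], Psat1 differed there by -0.0006 and Pycr1 by -0.014, both within it, and Pycr1 by 0.12 with quantile normalization. The sign of the pyruvate difference was the same at both glucose levels for 6 of the 10, and for 51.3% of 17433 genes measured in both pairs.

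For pyruvate removal at 5 mM glucose, 0 of the 10 enzymes reached 2-fold, against 1.07% of the 18295 genes measured in that pair. Differences ran from -0.059 (Shmt1) to 0.13 (Pycr1) with a median of 0.012, where all genes had a median of -0.014. Pycr1 alone lay beyond the spread, 1 of 10 where 43.5% of all genes did. That share includes dim genes and is not matched for brightness. Pycr1 held the only enzyme probe in the dimmest of the brightness classes given below. The central 95% of that class ran from -0.72 to 0.65 in this pair, so 0.13 lay well inside it. By any amount, 6 of the 10 enzymes were higher, beside 45.1% of all genes.

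For pyruvate removal at 15 mM glucose, again 0 of 10 reached 2-fold, against 2.02% of 17562 genes. The median was 0.073, and 0.032 over all genes. Psat1, Psph, Mthfd2, Pycr1 and Aldh18a1 lay beyond the spread, all higher without pyruvate, by 0.13 to 0.32, and the other 5 lay within it, from -0.066 to 0.013. Over all genes 59.6% lay beyond the spread and 56.8% were higher, shares again not matched for brightness. Beside them, neither 5 of 10 beyond the spread nor 6 of 10 higher sets the enzymes apart. The direction of all genes beyond the spread was not counted, so the shared direction of these 5 has no share beside it. At 1.5-fold, 536 genes were higher and 535 lower, but none of the 5 reached that threshold, so these counts are not their background. Of the 5, Psat1, Psph, Mthfd2 and Aldh18a1 had a positive sign under each of the 5 or 6 other ways of processing that could change their values, Psat1 at its lowest of 0.063 with its brightest probe alone, inside the spread, and Pycr1 did not.

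The glucose pairs share arrays with the pyruvate pairs and add no independent samples. With pyruvate, 15 against 5 mM glucose gave a median of -0.0075 (all genes -0.020), 4 of 10 higher against 44.6% of 17783 genes, and 2 beyond the spread (Aldh18a1 at -0.30 and Mthfd2 at -0.11) against 49.4%. Without pyruvate the median was 0.023 (all genes 0.031), 7 of 10 were higher against 55.9% of 17834 genes, and 2 lay beyond the spread (Psph at 0.25 and Psat1 at 0.14) against 63.7%. Psat1 in that pair rested on its dimmer probe, being 0.033 by the brighter alone and 0.084 with quantile normalization, both inside the spread, and scaling to spike-in probes gave -0.10 for Psat1 and 0.0093 for Psph. At 2-fold there was no enzyme in either pair, where 0.86% and 2.17% of genes passed. The spread of differences depends on brightness, so the 27589 probes measured on all arrays were also cut into 3 equal classes of brightness, with 11 enzyme probes in the brightest, 4 in the middle and 1 in the dimmest. In all 4 pairs, 0 of the 16 probes lay outside the central 95% of its class.

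**Figure D2:**
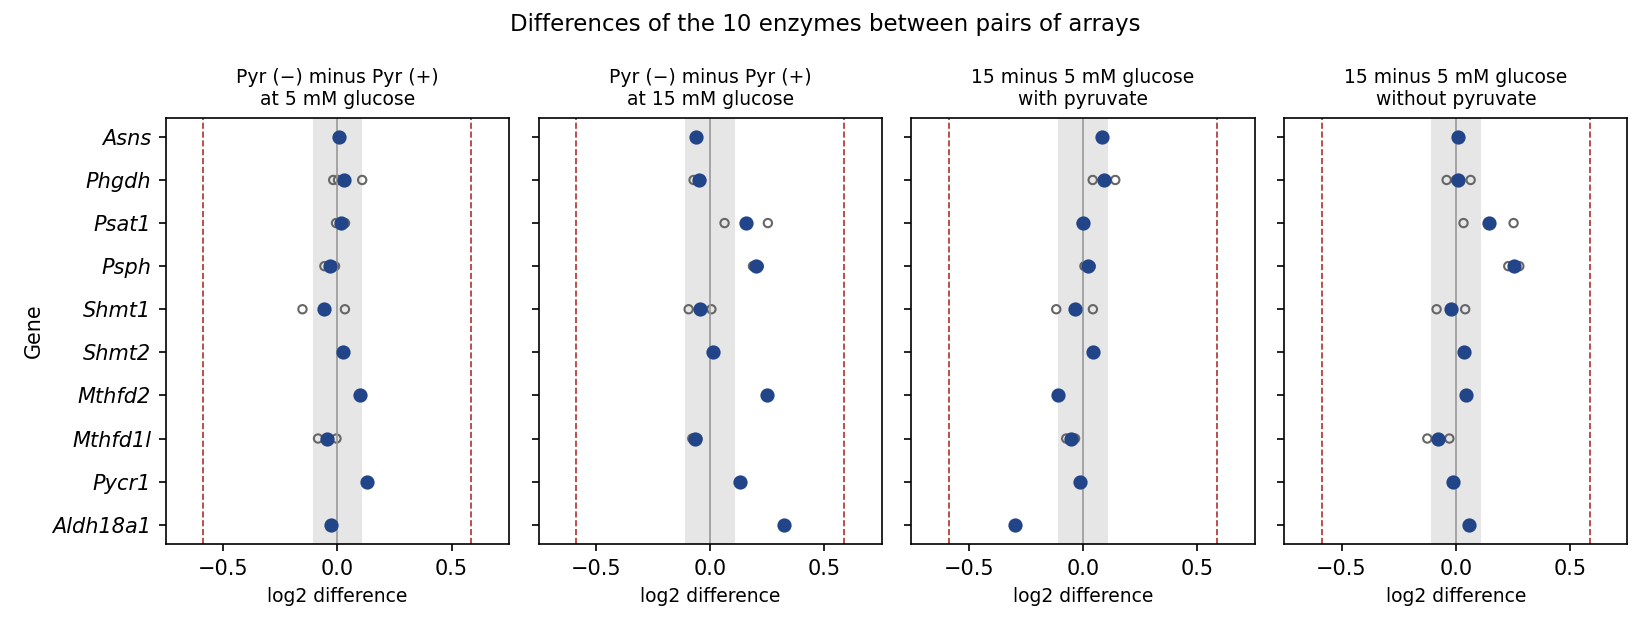
Log2 differences of the 10 enzymes in the 4 pairs of arrays (horizontal axis), by gene (vertical axis). Filled points are genes, open points single probes, the grey band is the spread between spots (0.10 either way), and dashed lines mark 1.5-fold. At 15 mM glucose 5 enzymes lie right of the band, up to 0.32 for Aldh18a1, and none reaches the dashed lines in any pair.

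A fit with pyruvate and glucose as additive factors left 1 residual degree of freedom. By limma with Benjamini-Hochberg adjustment over 31274 probes, 0 probes (0%) passed for pyruvate and 0 (0%) for glucose at an adjusted p of 0.05, 1077 and 1496 having an unadjusted p below it. None of the 16 enzyme probes had an unadjusted p below 0.05 in either, and their lowest adjusted p was 0.985 for pyruvate and 0.772 for glucose. The fit takes any dependence of the pyruvate difference on glucose as error. Among the enzymes that dependence was largest for Aldh18a1, at 0.35. Arrays were simulated with each probe's residual from this fit as its noise. On them the fit recovered 0 of 200 probes moved by 1.5 on the log2 scale, so a count of 0 says nothing about the absence of change.

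The enzymes and carriers around these pathways also held no gene at 2-fold in any pair. Of 25 serine, glycine and folate neighbours, 24 were measured at 15 mM glucose, with a median of 0.027, and all 25 at 5 mM, with a median of -0.032. Gldc of the glycine cleavage system stood farthest there, at -0.30, with readings of 388, 361, 314 and 262, lowest without pyruvate at 15 mM glucose. At 5 mM the farthest was Sds, a serine dehydratase, at -0.30, but it was dim, at 15.3 against 12.1. Around asparagine, 17 of 17 genes were measured, with medians of -0.013 at 5 mM and 0.063 at 15 mM glucose. Asrgl1, an asparaginase, was the farthest in all 4 pairs and had no steady direction, at -0.78 and 0.61 for pyruvate, on a dim probe that read 58.0, 32.8, 27.6 and 42.8.

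Among 13 proline and ornithine neighbours, 11 were measured, Arg1 and Arg2 not being well above background on any array. Their pyruvate medians were -0.014 and 0.071 at 5 and 15 mM glucose. The farthest was Prodh2 (-0.39 and -0.43), dim at 53.4, 39.6, 40.6 and 30.8. Oat, which joins ornithine to the proline pathway, was the farthest in the glucose pair without pyruvate, at 0.34. It read 7812, 7220, 6569 and 8569, highest in [Glc 15 mM/Pyr (-)] as Psph was.

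The aminoacyl-tRNA synthetases, which charge tRNAs with amino acids and are also known ATF4 targets, were all 20 measured, with pyruvate medians of -0.018 and 0.0013 at 5 and 15 mM glucose and the farthest at 0.34 (Dars at 5 mM) and -0.20 (Farsa at 15 mM). The 11 amino acid transporters had medians of 0.047 and -0.015. Of these, Slc3a2, the heavy chain of several exchangers, stood farthest at 15 mM glucose at 0.42, reading 25077, 25883, 20799 and 28446, and Slc7a1, a cationic amino acid carrier, at 5 mM at 0.15.

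The stress genes of ATF4 were described beside the enzymes because both are attributed to the same factor. Atf4 itself, as the mean of 2 probes, was 0.51 higher without pyruvate at 5 mM and 0.98 higher at 15 mM glucose, its brighter probe reading 77467, 109869, 74885 and 143728. It stood farthest among 12 eIF2 kinases and regulators, whose medians were 0.0020 and -0.0071. Of the 12 stress genes, 5 reached 2-fold at 15 mM glucose (Ddit3, Atf3, Chac1, Ddit4 and Ppp1r15a, by 1.00 to 1.08), and the list's medians were 0.38 and 0.69. Over all genes, 178 of 17562 were 2-fold higher in that pair. These 5 lay close to the threshold, so their count could change with a small shift. At 15 mM glucose 8 of the 12 stood above the highest enzyme, and 0 of 10 enzymes stood above the stress list's median, at either glucose level. The share of all genes above those medians was not counted. Over all genes, 536 of 17562 were 1.5-fold higher at 15 mM glucose and 270 of 18295 at 5 mM. Most genes thus lay below the 15 mM median as the enzymes did, and the count of 0 does not set the enzymes apart. Not all stress genes stood above the highest enzyme, since Vldlr was -0.051 and -0.042. Whether the core in a window goes with the size of a difference was not tested. The difference between the lists was not tested, and their genes were named with these results known.

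**Figure D3:**
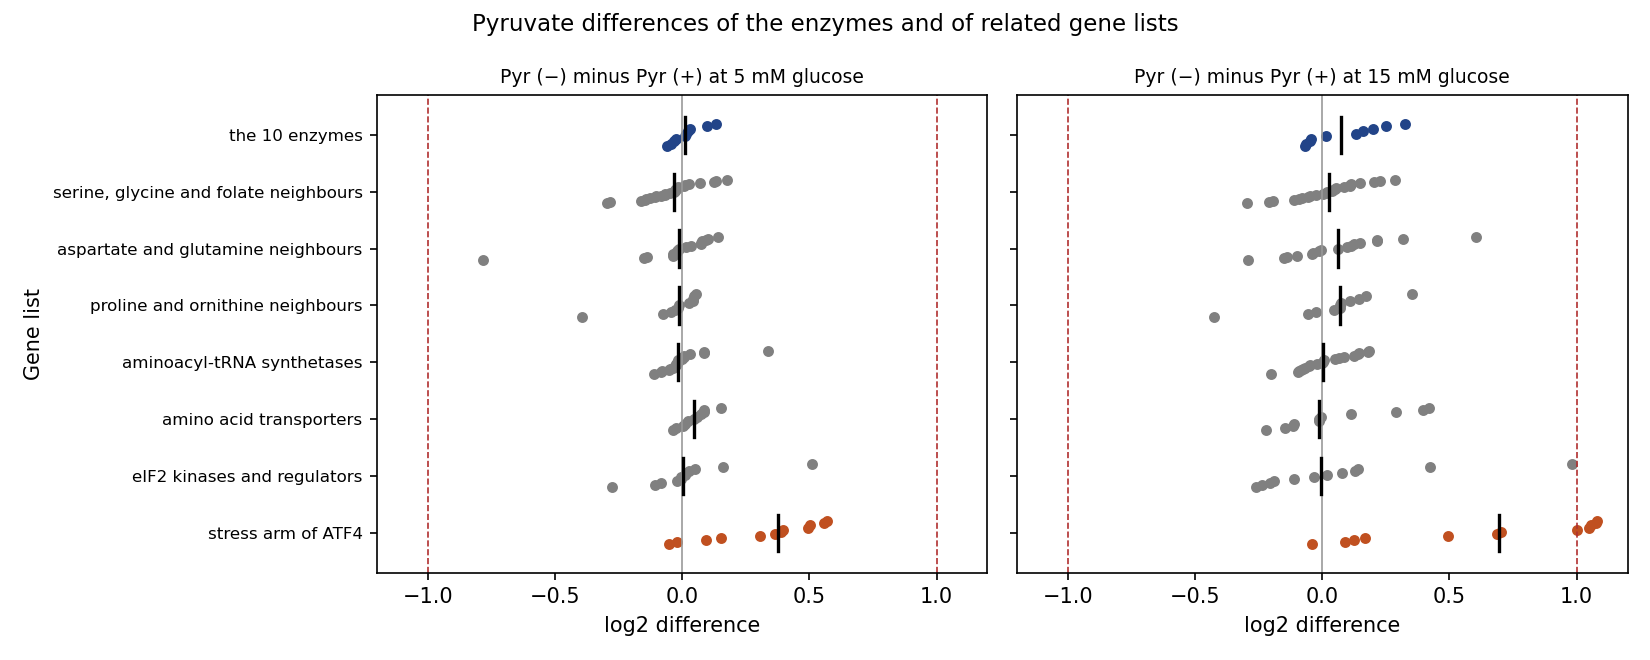
Log2 differences without minus with pyruvate (horizontal axis) at 5 mM glucose (left) and 15 mM glucose (right) for the genes of each list (vertical axis). Points are genes, black bars medians, and dashed lines mark 2-fold. The enzymes (top row) lie between -0.066 and 0.32, whereas the stress genes (bottom row) have medians of 0.38 and 0.69.

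The genes whose 4 levels, each centred on its own mean, lay nearest to those of Aldh18a1 were Tmod4, at a Euclidean distance of 0.0037, and then Aym1, Gm11529, Zglp1 and Arl9, at 0.030 to 0.038. Their order was taken over 17431 genes and only 4 arrays, and like Aldh18a1 they were lowest in [Glc 15 mM/Pyr (+)], at -0.22 to -0.25 from their mean.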

How the data were processed

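Total RNA of 4 samples, 1 array each, was hybridised to Agilent mouse genome arrays of 60-base probes (design positions in build mm9). The authors deposited the output of Agilent Feature Extraction 11.5.1.1, in which the processed signal is an intensity after background subtraction, and a table of ratio values. In every column of that table all 44397 deposited values equalled the processed signal divided by 1 constant for that array, which the sources used here do not explain. All 4 arrays were on 1 slide.

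Control spots and outlier spots (166 to 183 per array) were left out and spots of a probe were averaged. Signals were scaled as log2 minus the 75th percentile of the array. A probe counted in a pair when well above background on both arrays, and a gene was the mean of its probes. With 1 array per condition, values were set side by side and no error between cultures could be had. The additive fit used limma 3.58.1 (R 4.3.3) with Benjamini-Hochberg adjustment, and was tested on simulated data. The number of arrays limits the precision.

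Genes other than the enzymes were named by a rule: those of each list at 2-fold in any pair and the farthest in each pair, the 5 nearest profiles, and markers well above background on all arrays or on none. For the glucose pairs and the markers only some of these are printed. One gene that the rule takes is not reported here. The enzymes and lists were chosen with earlier results of these data known. Exon, intron and UTR positions of the probes were not analysed here. Alternatives were 3 other scalings between arrays, a 75th percentile over commonly measured probes, normexp background correction (offset 50), the deposited values, 2 other filters, the brightest probe, a 1.5-fold threshold and, in the fit, an intensity trend.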

Additional observations from a re-analysis of the deposited data

How the results depend on the processing

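None of the 10 enzymes reached 2-fold in any pair under any alternative, or 1.5-fold with the values as reported. Scaling to 8 spike-in probes moved the enzymes' medians to -0.20 (pyruvate at 5 mM glucose), -0.41 (glucose with pyruvate) and -0.22 (glucose without pyruvate), and those of all genes to -0.23, -0.42 and -0.21. Such scaling subtracts 1 constant per array, so it moves every gene alike and says nothing about the enzymes relative to other genes. The median for pyruvate at 15 mM glucose was then 0.017. No other alternative moved a median beyond the spread between spots. Of 360 values of single enzymes under alternatives, 140 equal the reported ones by construction (the deposited values, both filters, and the brightest probe of genes with 1 probe). Of the other 220, 37 moved by more than that spread and 50 changed sign, none of which had been larger than 0.14, and without spike-in scaling 7 of 180 moved and 33 changed sign. The farthest was Aldh18a1 at -0.70 for glucose with pyruvate, with spike-in scaling. The additive fit called 13 probes for pyruvate and 28 for glucose with spike-in scaling, and 2 for pyruvate with normexp, none of them of an enzyme.

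Counts over all genes depended on the processing. At 2-fold, 196, 355, 153 and 387 genes passed in the order pyruvate at 5 mM, pyruvate at 15 mM, glucose with and glucose without pyruvate. With normexp these were 5, 63, 4 and 67, with no filter on dim probes 926, 1479, 918 and 1547, and at 1.5-fold 581, 1071, 530 and 1155. With spike-in scaling, 343 passed for glucose with pyruvate. The causes were not tested. Leaving out an array was not run, since a condition would be lost, and the slide could not be a block, since all arrays were on 1. No paired analysis was possible because each group was 1 array, beyond the additive fit, which matches the arrays of 1 glucose level.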
